A study of Mus musculus with 4 samples.

Results

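Naive-like CD8 T cells of B16 melanomas were picked by transcripts, from the CD45-sorted leukocytes of tumours of mice labelled as ATPIF1 knock-out (KO) and of wild-type (WT) mice. A cell was a member if it held at least 1 UMI (unique molecular identifier, 1 counted transcript) of Cd3d, Cd3e or Cd3g, at least 1 of Cd8a or Cd8b1, none of Cd4, Foxp3, Csf1r, Xcr1 or Cd79a, under 3 of the cycling genes Mki67, Top2a, Rrm2 and Hist1h2ap, none of the checkpoint genes Pdcd1, Lag3, Havcr2, Tigit and Tnfrsf9, and at most 1 of the effector genes Ccl5 and Nkg7. The rule took 135 of 7581 cells, 65 of 3211 in the library labelled KO and 70 of 4370 in that labelled WT. The members are therefore cells without a UMI of these 5 checkpoint genes and with 0 or 1 UMI of Ccl5 and Nkg7 together, and the rule asked for no naive gene.

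Naive CD8 T cells are mature cytotoxic lymphocytes that have not yet met their antigen. They recirculate through lymph nodes with the help of the chemokine receptor Ccr7, depend on interleukin 7, and are held in a resting state by transcription factors such as Tcf7, Lef1, Foxo1, Klf2 and Bach2. On activation they lose these transcripts, divide into clones that share a T cell receptor and gain granzymes, chemokines and, under lasting stimulation, inhibitory receptors.

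All mice were C57BL/6 males that carried B16 melanoma, a transplantable line of that strain, in the right flank for 12 days. Before the sort, cells from the tumours of a genotype were pooled. The labels give 6 mice without saying whether per genotype, and they do not describe the allele. From each pool came 1 single-cell 5′ RNA library and 1 library of T cell receptor transcripts. No difference between genotypes therefore has a replicate check, and none was tested. Intervals in parentheses are at the 95% level and cover counting error only. Unless stated otherwise, a log2 ratio has KO on top and WT below. Levels are in CPM, a gene's summed UMIs scaled to 1000000 UMIs of its class.

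The RNA library labelled KO held 24385843 UMIs and that labelled WT 35152477. Atpif1, the gene named in the genotype, encodes a protein that blocks the mitochondrial ATP synthase. Its level in naive-like cells labelled KO was not the lower one: it was at 108 CPM in the library labelled KO (17 UMIs in 10 cells) and 85.6 CPM in that labelled WT (18 UMIs in 13 cells), a log2 ratio of 0.34 (-0.71 to 1.38). The 5′ counts per gene do not show which part of the gene is altered, so this value cannot check the label, and groups are called by their labels. Barcodes shared by both libraries numbered 29 among all kept cells and 0 among naive-like cells. Free RNA, estimated from melanoma and haemoglobin transcripts, made up 3.94% of the UMIs of gated T cells in the library labelled KO and 2.14% in that labelled WT.

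Naive-like cells were shallow and rich in ribosomal protein transcripts, traits not particular to them. Their median was 2238 UMIs and 726 genes in the library labelled KO and 2636 UMIs and 830.5 genes in that labelled WT. Ribosomal protein genes held 44.2% of their UMIs in the library labelled KO and 40.5% in that labelled WT, and the median mitochondrial share was 4.22% in the library labelled KO and 3.87% in that labelled WT. In effector CD8 T cells, defined below, ribosomal protein genes held 41.6% labelled KO and 43.4% labelled WT. Conventional CD4 T cells had a median of 1922.5 UMIs labelled KO and 2758 labelled WT. In all, the naive-like class held 156969 UMIs in the library labelled KO and 210384 in that labelled WT, which is what limits the gene-level values below.

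A few members carried transcripts of other leukocytes. In 3 cells of the library labelled KO and 6 of that labelled WT, over 1% of UMIs came from 14 MHC class II and myeloid genes, and these 9 mixed cells held 8.18% of the class's UMIs in the library labelled KO and 20.2% in that labelled WT. The 3 deepest of them, all in the library labelled WT, had 12869, 9772 and 9250 UMIs with 565, 670 and 487 UMIs of MHC class II genes, beside 14, 13 and 3 UMIs of the naive markers. In 2 others of that library, 75 and 33 UMIs came from the neutrophil genes S100a8 and S100a9. A doublet score placed 0 of the naive-like cells labelled KO and 3 of those labelled WT among the likely doublets, and all 3 were mixed cells. Results that these 9 cells move are also given without them, a choice made after the data were seen.

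**Figure D1:**
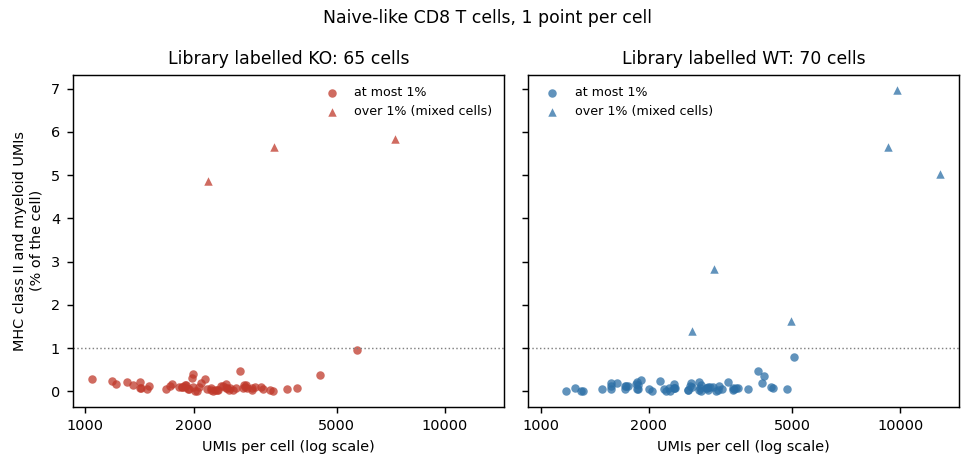
Share of UMIs from 14 MHC class II and myeloid genes (y axis, percent) against UMIs per cell (x axis, log scale) for the 65 naive-like cells of the library labelled KO (left) and the 70 of that labelled WT (right), 1 point per cell. Triangles above the dotted line at 1% are the mixed cells, 3 labelled KO and 6 labelled WT, and the 3 deepest lie in the library labelled WT at 9250 to 12869 UMIs.

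The T cell receptor was not used by the rule and shows whether these cells had expanded as clones. A receptor beta chain (TRB) was recovered for 9 of 65 naive-like cells in the library labelled KO, 13.8% (6.53 to 24.7%), and for 8 of 70 in that labelled WT, 11.4% (5.07 to 21.3%). All 17 chains were distinct, and each sequence was found once in the 2 receptor tables together. An alpha and a beta chain together were recovered for 2 cells labelled KO and 3 labelled WT, and 0 of these 5 paired receptors was shared with another cell. None of the 17 belonged to a clone of 2 or more cells, which allows a share of up to 33.3% in the library labelled KO and of up to 37.5% in that labelled WT. By contrast, 49 of 60 checkpoint-positive CD8 T cells with a TRB (81.7%, 69.6 to 90.5%) were in such clones in the library labelled KO, and 3 of 15 (20%, 4.33 to 48.1%) in that labelled WT. Effector CD8 T cells, which have no checkpoint UMI and at least 2 UMIs of Ccl5 or Nkg7, were in clones in 7 of 32 cells (21.9%, 9.28 to 40.0%) in the library labelled KO and in 3 of 47 (6.38%, 1.34 to 17.5%) in that labelled WT. The intervals of naive-like and effector cells overlap in both libraries, so a lower clonal share than in effector cells was not detectable at this depth, while in the library labelled KO the upper limit for naive-like cells lies below the interval of checkpoint-positive cells.

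The chains used 13 V and 9 J segments, of which TRBV16 was seen in 3 cells and TRBV1 and TRBV14 in 2 each. RefSeq (GRCm38.p6, the mm10 build) lists 35 Trbv segments, on chromosome 6. The nucleotide sequences of the third complementarity-determining region (CDR3), the part that contacts the peptide, are shown 5′ to 3′ for cells that share a V segment and for the longest and the least diversified region. Capitals mark the junction, the bases between the stretch shared with at least 2 other distinct chains of the same V segment and the stretch shared with at least 2 of the same J segment.
Naive-like cell 5 of the library labelled KO, TRBV16 with TRBJ2-7: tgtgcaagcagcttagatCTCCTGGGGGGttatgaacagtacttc
Naive-like cell 6 of the library labelled KO, TRBV16 with TRBJ2-4: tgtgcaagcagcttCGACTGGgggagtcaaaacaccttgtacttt
Naive-like cell 1 of the library labelled KO, TRBV1 with TRBJ2-3: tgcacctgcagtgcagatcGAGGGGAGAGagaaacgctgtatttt
Naive-like cell 1 of the library labelled WT, TRBV1 with TRBJ2-3: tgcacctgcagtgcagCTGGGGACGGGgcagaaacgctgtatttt
Naive-like cell 4 of the library labelled KO, TRBV14 with TRBJ2-4: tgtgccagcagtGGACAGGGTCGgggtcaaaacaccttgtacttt
Naive-like cell 5 of the library labelled WT, TRBV14 with TRBJ1-1: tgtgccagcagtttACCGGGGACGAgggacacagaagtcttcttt
Naive-like cell 2 of the library labelled KO, TRBV12-2 with TRBJ2-5: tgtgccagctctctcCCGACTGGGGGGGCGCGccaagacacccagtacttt
Naive-like cell 3 of the library labelled WT, TRBV12-1 with TRBJ2-7: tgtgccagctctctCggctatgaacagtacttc
Cells with the same V segment had different junctions and mostly different J segments. The regions were 33 to 51 bases long with a median of 45, all multiples of 3, and the junctions were 1 to 17 bases long with a median of 9. Cell 1 of the library labelled WT is a mixed cell, as is cell 8, which had a TRBV23 chain that is not shown, so 2 of the 8 chains labelled WT come from mixed cells. Cell 7 of the library labelled KO, which had a TRBV20 chain that is not shown, held no UMI of the 5 naive markers.

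Fewer receptor chains were recovered from naive-like cells than from the checkpoint-positive class. Recovery was 19.9% in effector and 48.4% in checkpoint-positive cells labelled KO, and 32.6% in effector and 46.9% in checkpoint-positive cells labelled WT. Transcripts of the receptor constant segments in the RNA libraries stood at 745 CPM (616 to 893) in naive-like cells, 1001 CPM in effector cells and 1756 CPM in checkpoint-positive cells labelled KO. In the library labelled WT they stood at 518 CPM (425 to 625) in naive-like, 618 CPM in effector and 764 CPM in checkpoint-positive cells. Median depth ran the same way, with 2602 UMIs per effector and 3148 per checkpoint-positive cell labelled KO, and 3310 per effector and 3736.5 per checkpoint-positive cell labelled WT. The part of transcript level and depth in recovery was not tested.

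**Figure D2:**
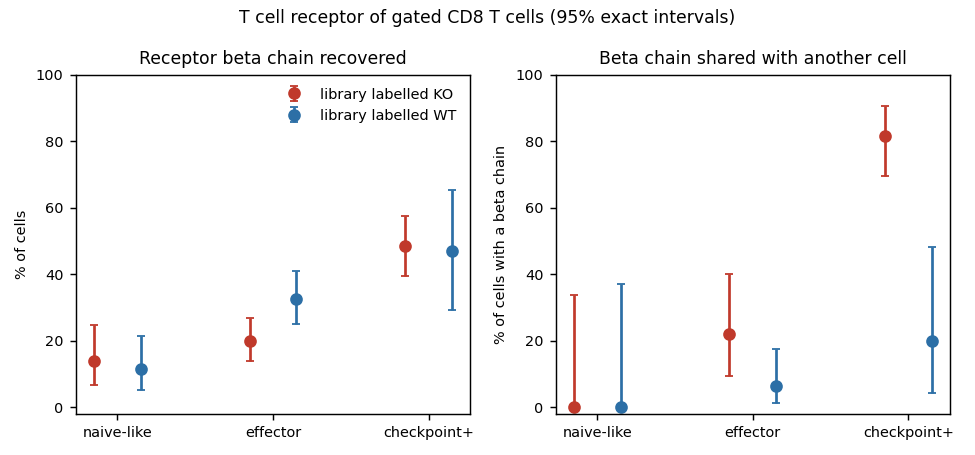
Left, percent of cells with a recovered receptor beta chain in naive-like, effector and checkpoint-positive CD8 T cells. Right, percent of the cells with a beta chain whose chain was found in at least 2 cells. Points are the library labelled KO (red, left of each pair) and that labelled WT (blue), and bars are exact 95% intervals. Naive-like cells are at 0% on the right, against 81.7% of checkpoint-positive cells labelled KO.

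The members carried the naive markers given for them, with a share of cells in which none was seen. The 5 markers lie, in GRCm38.p6 coordinates, with Lef1 at chromosome 3, 131110297 to 131224357, Satb1 at chromosome 17, 51736187 to 51833290, Tcf7 at chromosome 11, 52246527 to 52283383, Ccr7 at chromosome 11, 99144199 to 99155077, and Dapl1 at chromosome 2, 59484653 to 59505020. Lef1, a transcription factor of the Wnt pathway that keeps T cells undifferentiated, was at 197 CPM in the library labelled KO (31 UMIs in 27 cells) and 271 CPM in that labelled WT (57 UMIs in 39 cells). Its partner Tcf7 was at 210.2 CPM in the library labelled KO (33 UMIs in 24 cells) and 257 CPM in that labelled WT (54 UMIs in 33 cells). Satb1, an organiser of chromatin that is high in resting T cells, was at 420.5 CPM in the library labelled KO (66 UMIs in 34 cells) and 371 CPM in that labelled WT (78 UMIs in 45 cells). Dapl1, known as a transcript of naive and central memory CD8 T cells, was at 197 CPM in the library labelled KO (31 UMIs in 19 cells) and 185 CPM in that labelled WT (39 UMIs in 20 cells). Ccr7 was at 255 CPM in the library labelled KO (40 UMIs in 27 cells) and 561 CPM in that labelled WT (118 UMIs in 40 cells) and was the 1 marker of the 5 that differed by the rule of size used below.

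Most members held 1 to 3 of the 5 markers. No marker was seen in 10 of 65 cells labelled KO and in 1 of 70 labelled WT, and the mean number per cell was 2.02 in the library labelled KO and 2.53 in that labelled WT. Most effector cells held a marker too, and none was seen in 38 of 161 labelled KO and 29 of 144 labelled WT. After each cell was thinned to 1000 UMIs, 32.3% (21.2 to 45.1%) of the naive-like cells labelled KO and 15.7% (8.11 to 26.4%) of those labelled WT held none, and the mean was 1.03 in the library labelled KO and 1.26 in that labelled WT. Of effector cells thinned alike, 46.6% (38.7 to 54.6%) labelled KO and 48.6% (40.2 to 57.1%) labelled WT held none. The intervals of the 2 classes overlap in the library labelled KO and not in that labelled WT. At that depth Ccr7 was seen in 15.4% of naive-like cells labelled KO and 34.3% of those labelled WT, and Lef1 in 21.5% of naive-like cells labelled KO and 22.9% of those labelled WT. In cells with Csf1r and no Cd3 transcript, myeloid cells that should lack these genes, with a median depth of 6488 UMIs labelled KO and 7703 labelled WT, Lef1 was seen in 0% of either library after thinning and Ccr7 in 1.42% of the library labelled KO and 1.66% of that labelled WT. The markers in naive-like cells thus stood above what free RNA gave other cells.

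**Figure D3:**
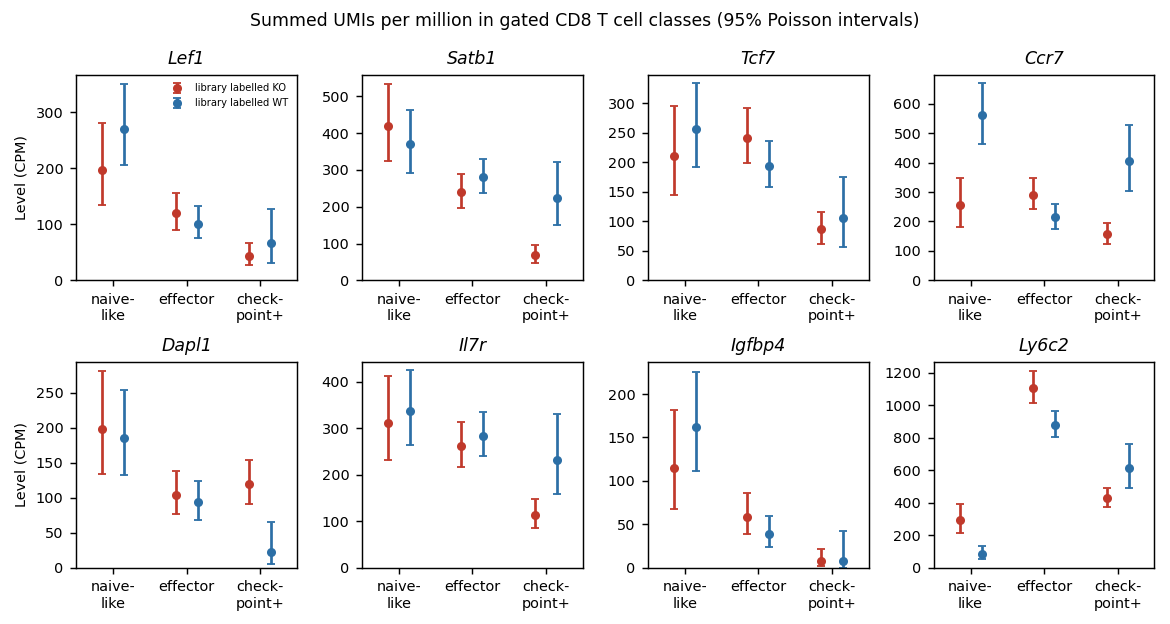
Levels in CPM (y axis, linear, from 0) of the 5 given markers and of Il7r, Igfbp4 and Ly6c2 in the 3 classes of gated CD8 T cells, for the library labelled KO (red, left of each pair) and that labelled WT (blue). Bars are 95% Poisson intervals of the summed UMIs. Lef1 and Igfbp4 run down from naive-like to checkpoint-positive cells in both libraries, Ly6c2 is lowest in naive-like cells of both, and Ccr7 of naive-like cells is at 255 CPM in the library labelled KO and 561 CPM in that labelled WT.

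Gamma delta T cells and natural killer cells left few defining transcripts, whereas myeloid transcripts were seen in both libraries, also outside the mixed cells. Of the 8 gamma delta T cell genes, including Trdc and Tcrg-C1, none had a UMI in naive-like cells of either library. The natural killer genes Ncr1, Klrb1c, Klre1, Klra8 and Klra4 were at 0 in both, and only Tyrobp, Fcer1g and Eomes of the 8 listed genes were seen. Of the B cell list, Ms4a1, Iglc2 and Ighd were at 0 in both libraries, and the list's sum of 3013 CPM in the library labelled KO and 6070 CPM in that labelled WT was nearly all Cd74 and H2-Aa. Outside the mixed cells that sum was 416 CPM in the library labelled KO and 369 CPM in that labelled WT. All 11 myeloid genes were seen, at a sum of 1860.2 CPM in the library labelled KO and 2424 CPM in that labelled WT, and without the mixed cells at 1041 CPM labelled KO and 941 CPM labelled WT.

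The limit of the gate did not divide the cells sharply by the naive markers. Members at the limit of 1 UMI of Ccl5 and Nkg7 numbered 31 labelled KO and 21 labelled WT, of which 30 labelled KO and 20 labelled WT held Nkg7. Their 5 markers summed to 1253 CPM in the library labelled KO and 1612 CPM in that labelled WT, while the cells just outside, at 2 UMIs, had 1745 CPM in the library labelled KO (12 cells) and 1829 CPM in that labelled WT (19 cells). Cells with 3 UMIs had 1399 CPM in the library labelled KO (12 cells) and 901 CPM in that labelled WT (9 cells), and cells with over 3 UMIs had 916 CPM in the library labelled KO and 764 CPM in that labelled WT. Ly6c2, an antigen of memory and effector CD8 T cells, was at 277 CPM in the library labelled KO and 121 CPM in that labelled WT at 1 UMI, and at 2 UMIs at 582 CPM labelled KO and 231 CPM labelled WT. At 0 UMIs Ly6c2 was at 308 CPM labelled KO and 69.4 CPM labelled WT. Cells just outside the limit thus held at least as much of the 5 markers in sum as those just inside, in both libraries, although Lef1 alone was at 135 CPM at 2 UMIs and 347 CPM at 1 UMI in the library labelled WT.

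Set beside the other gated CD8 T cells of the same library, the naive-like cells had more transcripts of regulators of the naive state and fewer of effector function. Since the rule removed cells by effector and checkpoint transcripts, these values describe the class and test nothing. A gene was counted as higher or lower if it differed at least 1.5-fold with an interval that leaves out no difference, which 2.6% of 4846 genes did upwards and 8.87% downwards in the library labelled KO, and 6.07% of 3790 upwards and 5.22% downwards in that labelled WT. Of 15 measured naive regulators 6 were higher and 0 lower in the library labelled KO, and of 14 in that labelled WT 5 were higher and 0 lower. Both libraries shared Lef1, Bach2, Klf2 and Klf3. The numbers were the same without the mixed cells, but Klf3 was then not called in the library labelled WT, at log2 0.55 (-0.14 to 1.21). Without them, Tcf7 was called in the library labelled WT (0.63) and not in that labelled KO (0.50 (-0.09 to 1.06)). Satb1 was called in the library labelled KO (1.55) and not in that labelled WT (0.54 (0.11 to 0.95)), short of 1.5-fold. Id3 was called in the library labelled KO (1.08) and lay below 0 in that labelled WT (-0.64 (-1.45 to 0.10)), also without the mixed cells. Bach2, a repressor that restrains effector differentiation, was at 63.7 CPM in naive-like and 21.5 CPM in other gated CD8 T cells labelled KO (log2 1.57), and at 66.5 CPM in naive-like and 29.3 CPM in other gated CD8 T cells labelled WT (log2 1.18). Klf2, which drives S1pr1, the receptor for exit from lymph nodes, was at 936 CPM in naive-like and 417 CPM in other gated CD8 T cells labelled KO (log2 1.17), and at 965 CPM in naive-like and 594 CPM in other gated CD8 T cells labelled WT (log2 0.70).

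Among receptors and markers, Igfbp4, a transcript of naive T cells that encodes a binding protein of insulin-like growth factor, stood highest by the naming rule. It was at 115 CPM in naive-like and 32.3 CPM in other gated CD8 T cells labelled KO and at 162 CPM in naive-like and 32.4 CPM in other gated CD8 T cells labelled WT, log2 ratios of 1.83 labelled KO and 2.32 labelled WT. The interleukin 6 receptor subunit Il6st was higher in both, with log2 ratios of 1.83 in the library labelled KO and 1.32 in that labelled WT. Il7r, the receptor for interleukin 7, passed in the library labelled KO (log2 0.76) and not in that labelled WT (0.30), whereas Ccr7 passed in that labelled WT (1.15) and not in that labelled KO (0.21). Of 12 naive marker genes, 7 were higher and 0 lower in naive-like cells labelled KO, and 5 were higher and 1 lower in those labelled WT. Without the mixed cells the 1 lower gene labelled WT was Ltb, at log2 -0.84 (-1.42 to -0.31), beside 6 higher. Of the 14 measured homing and survival genes, 4 were higher and 4 lower in naive-like cells labelled KO, and 2 were higher and 1 lower in those labelled WT. The lower homing and survival genes include Cd27, a costimulatory receptor, at log2 -1.43 labelled KO, against 0.52 labelled WT, which did not pass. The lymphocyte GTPase Gimap4 is another, at -1.30 labelled KO and -0.70 labelled WT. Rnf19a, Rgcc and Frat2 were the other non-interferon genes among the 10 highest, with log2 ratios of 1.83, 1.23 and 1.83 in the library labelled KO and 1.87, 0.88 and 1.11 in that labelled WT.

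Memory and effector genes stood lower in the naive-like class. Of 21 measured, 16 were lower and 0 higher in naive-like cells of the library labelled KO, and of 17 in that labelled WT 12 were lower and 0 higher. With mixed cells left out, 16 of 21 labelled KO, where 10.3% of all genes were lower, and 12 of 16 labelled WT, where 6.25% were, stood lower. Gzmk, a granzyme of memory cells that the rule did not use, had 0 UMIs in naive-like cells of both libraries, against 93.6 CPM in the other CD8 T cells labelled KO and 49.4 CPM in those labelled WT. Ifng was at 6.37 CPM in naive-like and 198 CPM in other gated CD8 T cells labelled KO and at 23.8 CPM in naive-like and 136 CPM in other gated CD8 T cells labelled WT. Il2rb, the interleukin 2 and 15 receptor chain of memory cells, was at log2 -1.68 in the library labelled KO and -1.67 in that labelled WT, and Tbx21, the master regulator of effector cells, at -2.24 labelled KO and -1.92 labelled WT. S100a4, a transcript of activated T cells and of many myeloid cells, was at log2 -2.64 in the library labelled KO and 0.27 in that labelled WT, and without mixed cells in either class at -4.41 labelled KO and -3.75 labelled WT.

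Genes induced by interferon were among those highest in the naive-like class. Of 12 measured genes of the interferon gamma list, which holds GTPases and the regulators Irf1, Socs1 and Socs3, 5 were higher and 0 lower in the library labelled KO and 6 higher and 0 lower in that labelled WT. Igtp, a GTPase that acts on vacuoles of intracellular pathogens, was at 102 CPM in naive-like and 40.9 CPM in other gated CD8 T cells labelled KO and at 233 CPM in naive-like and 66.4 CPM in other gated CD8 T cells labelled WT, log2 ratios of 1.32 labelled KO and 1.81 labelled WT. The chemokine Cxcl10 was at log2 1.37 in the library labelled KO and 1.03 in that labelled WT, but was seen in only 12 naive-like cells labelled KO and 18 labelled WT. The ubiquitin-like Isg15 was at 1.17 labelled KO and 0.79 labelled WT. Without mixed cells 4 of 10 genes of the interferon gamma list were higher in the library labelled KO, where 2.34% of all genes were, and 8 of 10 in that labelled WT, where 4.39% were. Of the type I interferon list 2 of 15 were higher and 0 lower in the library labelled KO and 6 of 16 higher and 0 lower in that labelled WT, and with mixed cells left out 1 of 15 higher and 1 lower labelled KO and 5 of 13 higher and 0 lower labelled WT. Myeloid genes were higher in the naive-like class too, 6 of 9 measured labelled KO with 0 lower and 4 of 8 labelled WT with 1 lower. With mixed cells left out, 5 of 7 were higher labelled KO, among them C1qb at log2 2.11 and Lyz2 at 1.05, and 1 of 8 labelled WT, which was Apoe at 2.10. The part of such transcripts in the interferon values was not tested.

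Receptor signalling genes stood lower in both libraries, as did the medians of complex I and of complexes II to IV against the median of all genes. Over all genes 8.87% were lower labelled KO and 5.22% labelled WT. Of 12 measured receptor signalling genes 6 were lower in the library labelled KO and 4 in that labelled WT, with 0 higher in both, and the alpha chain constant segment Trac and the surface protein Thy1 were lower in both. Of the nuclear respiratory genes, 11 of 37 of complex I and 7 of 25 of complexes II to IV were lower in the library labelled KO and 0 of 36 of complex I and 0 of 25 of complexes II to IV in that labelled WT, with 0 higher in either library. The medians of the complex I genes were -0.55 in the library labelled KO and -0.22 in that labelled WT, against medians over all genes of -0.30 labelled KO and -0.03 labelled WT. Those of complexes II to IV were -0.51 labelled KO and -0.30 labelled WT. Of 15 ATP synthase genes 2 were lower labelled KO and 1 labelled WT, with medians of -0.32 labelled KO and -0.38 labelled WT. That labelled KO was close to the median over all genes. The genes of the mitochondrial genome had medians of 0.39 labelled KO and 0.23 labelled WT, with 0 of 13 higher labelled KO and 1 of 13 labelled WT, and 0 lower in either library. Median depth per cell was also lower in the naive-like class of both libraries. Without mixed cells 3 of 15 ATP synthase genes were lower in each library, with medians of -0.35 labelled KO and -0.36 labelled WT. Of complexes II to IV 10 of 25 were then lower labelled KO and 2 of 24 labelled WT. Of complex I 14 of 37 were lower labelled KO and 0 of 35 labelled WT, with medians of -0.63 and -0.38. Over all genes 10.3% were then lower labelled KO and 6.25% labelled WT, with medians of -0.35 and -0.07.

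The share of naive-like cells depended on what they were set against. Of the gated, non-cycling CD8 T cells, 65 of 350 labelled KO, or 18.6% (14.6 to 23%), and 70 of 246 labelled WT, or 28.5% (22.9 to 34.5%), were naive-like, a log2 ratio of -0.62 (-1.13 to -0.11). Of all kept cells they were 2.02% (1.57 to 2.57%) in the library labelled KO and 1.60% (1.25 to 2.02%) in that labelled WT, a log2 ratio of 0.34 (-0.17 to 0.85). Gated CD8 T cells themselves made up 10.9% of the library labelled KO and 5.63% of that labelled WT, and checkpoint-positive cells were 35.4% of them labelled KO and 13.0% labelled WT. The lower share among CD8 T cells thus stood beside a number of naive-like cells per kept cell whose interval includes no difference. Thinning all cells to 1000 UMIs before the gate gave a log2 ratio of -1.17 (-1.77 to -0.58) for the share of CD8 T cells, against -0.62 as reported. A filter of 500 UMIs gave -0.44 (-0.91 to 0.02), which includes no difference. With that filter the ratio for all kept cells was 0.60 (0.14 to 1.07), and with one of 2000 UMIs and 800 genes it was -0.24 (-1.04 to 0.53). Asking for no UMI of Ccl5 or Nkg7 gave -1.04 (-1.71 to -0.38) for the share of CD8 T cells and -0.083 (-0.76 to 0.58) for that of all kept cells. Pool and genotype cannot be told apart, since each genotype is 1 pool.

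Between the libraries, naive-like cells were compared over the 1742 genes with at least 20 UMIs in both together. The same rule of size was met upwards in the library labelled KO by 52 genes (2.99%) and downwards by 158 (9.07%), with a median log2 ratio over all genes of -0.06. Scaled by UMIs outside ribosomal protein and mitochondrial genes, which moves all ratios by 0.11, it was met by 79 genes upwards and 122 downwards. Without the 9 mixed cells it was met by 43 of 1386 genes upwards (3.1%) and 85 downwards (6.13%). Of the 52 higher genes 30 still met it, and of the 158 lower genes 72. The excess of genes lower in the library labelled KO was therefore smaller without the mixed cells, which were deeper and more numerous in that labelled WT.

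Few regulators of the naive state met the rule. Of 13 measured regulators 4 lay above 0 and 9 below, with a median of -0.24, against -0.06 over all genes. By the rule 0 were higher and 1 was lower in the library labelled KO. That 1 was Elf1, an ETS factor of lymphocytes, at 95.6 CPM in the library labelled KO and 195 CPM in that labelled WT, log2 -1.03 (-1.99 to -0.14). With the mixed cells left out, its interval included no difference (-0.87 (-1.86 to 0.05)). The list then had 1 gene higher and 0 lower, with a median of -0.35, and the 1 was Id3, a repressor of E protein factors, at 222 CPM in the library labelled KO and 107 CPM in that labelled WT, log2 1.05 (0.17 to 1.97). Lef1 had a log2 ratio of -0.46 (-1.14 to 0.20), Tcf7 of -0.29 (-0.96 to 0.36), Satb1 of 0.18 (-0.31 to 0.67) and Klf2 of -0.04 (-0.36 to 0.27), so that for Klf2 a difference above 1.5-fold lies outside the interval and for Lef1 and Tcf7 one downwards does not.

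Of the homing and survival receptors, Ccr7 alone of 14 measured met the rule. Its log2 ratio was -1.14 (-1.69 to -0.61), and -0.95 (-1.54 to -0.39) without the mixed cells, when it was at 271 CPM in the library labelled KO and 524 CPM in that labelled WT. The gate at equal depth left few counts and turned the direction, at 0.95 (-0.12 to 2.07) with 21 UMIs in the library labelled KO and 13 in that labelled WT. In effector cells Ccr7 was at 291 CPM in the library labelled KO and 214 CPM in that labelled WT, and in checkpoint-positive cells at 156 CPM in the library labelled KO and 404 CPM in that labelled WT. Il7r was at 312 CPM in the library labelled KO (49 UMIs in 30 cells) and 337 CPM in that labelled WT (71 UMIs in 45 cells), log2 -0.11 (-0.67 to 0.43), an interval that includes no difference.

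Of 12 naive marker genes, the 5 given markers among them, 2 were higher and 2 lower. Besides Ccr7, Actn1, which links the cytoskeleton to adhesion sites, was lower, at 95.6 CPM in the library labelled KO (15 UMIs in 15 cells) and 195 CPM in that labelled WT (41 UMIs in 27 cells), log2 -1.03 (-1.99 to -0.14). Ltb, lymphotoxin beta of resting lymphocytes, was higher, at 350.4 CPM in the library labelled KO (55 UMIs in 31 cells) and 185 CPM in that labelled WT (39 UMIs in 26 cells), log2 0.92 (0.30 to 1.55). Txk, a kinase of the receptor pathway in T cells, was higher too, at 134 CPM in the library labelled KO (21 UMIs in 16 cells) and 47.5 CPM in that labelled WT (10 UMIs in 8 cells), log2 1.49 (0.34 to 2.74). All 4 met the rule without the mixed cells, at -0.97 (-1.99 to -0.03) for Actn1, 0.96 (0.31 to 1.63) for Ltb and 1.22 (0.06 to 2.48) for Txk.

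Ly6c2 was the gene highest in the library labelled KO by the naming rule. The gene lies at chromosome 15, 75108161 to 75112066, and encodes a surface protein of memory and effector CD8 T cells and of monocytes. It was at 293 CPM in the library labelled KO (46 UMIs in 21 cells) and 85.6 CPM in that labelled WT (18 UMIs in 10 cells), log2 1.78 (0.96 to 2.65), with at most 11 UMIs in 1 cell labelled KO and 3 in 1 labelled WT. Free RNA would account for 9.76 CPM in the library labelled KO and 2.89 CPM in that labelled WT at the estimated share. In empty droplets Ly6c2 was at 248 CPM labelled KO and 135 CPM labelled WT, the latter above its level in naive-like cells labelled WT. Cells with Csf1r and no Cd3 transcript held 312 CPM labelled KO and 157 CPM labelled WT. Whether the difference is particular to naive-like cells was not tested. Leaving out the mixed cells gave a log2 ratio of 1.59 (0.76 to 2.49) for Ly6c2 in naive-like cells. At 1000 UMIs per cell it was seen in 9 of 65 cells labelled KO, 13.8% (6.53 to 24.7%), and in 3 of 70 labelled WT, 4.29% (0.89 to 12.0%), and these intervals overlap. Effector cells, where Ly6c2 is abundant, had 1107 CPM in the library labelled KO and 881 CPM in that labelled WT, log2 0.33 (0.14 to 0.52), and checkpoint-positive cells 427 CPM in the library labelled KO and 614 CPM in that labelled WT, log2 -0.52 (-0.90 to -0.14). Of the 21 naive-like cells with Ly6c2 labelled KO, 17 also held at least 1 of the 5 naive markers, as did 10 of 10 labelled WT.

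The memory and effector genes had no common direction. Of 8 measured, 1 was higher and 2 lower in the library labelled KO. Cd44, the adhesion receptor that marks antigen-experienced T cells, was lower, at 12.7 CPM in the library labelled KO (2 UMIs in 2 cells) and 128 CPM in that labelled WT (27 UMIs in 11 cells), log2 -3.33 (-6.45 to -1.34). Most of its UMIs labelled WT lay in the mixed cells, and without them it had 1 UMI in the library labelled KO and 5 in that labelled WT, log2 -2.10 (-7.67 to 1.06). S100a4 was at 76.4 CPM in the library labelled KO (12 UMIs in 6 cells) and 242 CPM in that labelled WT (51 UMIs in 6 cells), and without the mixed cells at 3 UMIs in the library labelled KO and 2 in that labelled WT, log2 0.80 (-2.32 to 4.39), so its direction turned. Il2rb was at 108 CPM in the library labelled KO (17 UMIs in 12 cells) and 99.8 CPM in that labelled WT (21 UMIs in 15 cells), log2 0.12 (-0.90 to 1.11), and Klrd1, an inhibitory lectin-like receptor, at 210.2 CPM in the library labelled KO (33 UMIs in 23 cells) and 157 CPM in that labelled WT (33 UMIs in 19 cells), log2 0.42 (-0.32 to 1.16). Only 1 of 65 cells labelled KO and 2 of 70 labelled WT held both Ly6c2 and Cd44.

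Interferon gamma genes were lower in the library labelled KO with or without the mixed cells. Of 9 measured, 5 were lower and 0 higher, with a median of -0.86, and the whole list of 18 genes summed to 1395 CPM in the library labelled KO and 2486 CPM in that labelled WT, log2 -0.83 (-1.07 to -0.60). With cells thinned to 1000 UMIs before the gate 0 were called in either direction, at a median of -0.74. Without the mixed cells 5 of 6 were lower, and the sums were 1353 CPM labelled KO and 2758 CPM labelled WT, log2 -1.03 (-1.28 to -0.78). Irf1, the transcription factor that relays the signal, was at 369.5 CPM in the library labelled KO (58 UMIs in 32 cells) and 670.2 CPM in that labelled WT (141 UMIs in 56 cells), log2 -0.86 (-1.33 to -0.41). Socs1 and Socs3, feedback inhibitors of cytokine signalling that are not GTPases, had log2 ratios of -0.77 (-1.33 to -0.23) and -0.91 (-1.52 to -0.33). Igtp was at 102 CPM in the library labelled KO (16 UMIs in 12 cells) and 233 CPM in that labelled WT (49 UMIs in 31 cells), log2 -1.19 (-2.11 to -0.35), and Gbp5, a guanylate-binding protein, at 12.7 CPM in the library labelled KO (2 UMIs in 2 cells) and 85.6 CPM in that labelled WT (18 UMIs in 12 cells), log2 -2.75 (-5.90 to -0.68). Irf1 was spread over many cells, since it was seen in 32 of 65 cells labelled KO and 56 of 70 labelled WT.

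In the other CD8 classes, Irf1 had log2 ratios of -0.35 (-0.71 to 0.01) in effector and -0.28 (-0.94 to 0.42) in checkpoint-positive cells, and Igtp of -0.75 (-1.60 to 0.07) and 0.30 (-1.30 to 2.33). The sum of the interferon gamma list was 1030.1 CPM in effector cells labelled KO and 1387 CPM in those labelled WT, and in checkpoint-positive cells 778 CPM labelled KO and 1191 CPM labelled WT. The sum was thus lower labelled KO in all 3 classes, and whether the ratios differ between classes was not tested. Of 9 measured type I interferon genes 2 were lower and 0 higher, with a median of -0.09, and of -0.36 without the mixed cells. Ifit1, which binds foreign RNA, was 1 of the lower genes, at 89.2 CPM in the library labelled KO (14 UMIs in 6 cells) and 171 CPM in that labelled WT (36 UMIs in 17 cells), log2 -0.94 (-1.95 to -0.01). Isg15 had a log2 ratio of -0.09 (-0.51 to 0.33).

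Immediate early and stress genes were also lower as a group, and part of that was carried by the mixed cells. Of 16 measured, 6 were lower and 0 higher, with a median of -0.51. Without the mixed cells 3 were lower and 2 higher, with a median of -0.34. Ier5, an early response gene, was at 280.3 CPM in the library labelled KO (44 UMIs in 29 cells) and 727 CPM in that labelled WT (153 UMIs in 52 cells), log2 -1.38 (-1.89 to -0.88), and at log2 -0.88 (-1.43 to -0.34) without the mixed cells. Jun, a subunit of the AP-1 factor, had log2 ratios of -1.10 (-1.48 to -0.73) and -0.71 (-1.13 to -0.30) in the same comparison, and Zfp36, which destabilises cytokine mRNA, of -1.05 (-1.45 to -0.66) and -0.86 (-1.31 to -0.42). Nfkbia, the inhibitor of NF-kappa B, had 83 of its 416 UMIs labelled WT in 1 cell and went to -0.55 (-0.84 to -0.26), short of 1.5-fold. Fos ran the other way, at 0.09 (-0.24 to 0.43) in all cells and 0.72 (0.33 to 1.13) without the mixed cells. In empty droplets Nfkbia was at 458 CPM in the library labelled KO and 1308 CPM in that labelled WT, and Jun at 1103 CPM labelled KO and 1688 CPM labelled WT.

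Early activation genes gave mixed values. Of 7 measured, 2 were lower, Egr1 at -1.06 (-1.78 to -0.39) and Batf at -1.09 (-2.08 to -0.18), both transcription factors induced by receptor signals, and 0 were higher. Without the mixed cells Batf still met the rule (-1.06 (-2.07 to -0.12)), Egr1 did not (-0.69 (-1.45 to 0.04)), and Nr4a1, an orphan nuclear receptor induced by antigen receptor signals, was higher at 0.97 (0.46 to 1.5). Cd69, which retains activated cells in tissue, was at 414 CPM in the library labelled KO (65 UMIs in 32 cells) and 433 CPM in that labelled WT (91 UMIs in 38 cells), log2 -0.06 (-0.54 to 0.41). Of 16 measured receptor signalling genes 1 was higher and 0 lower, with a median of 0.31 that was 0.18 without the mixed cells. That 1 was Lat, the adaptor that links the receptor to downstream signals, at 369.5 CPM in the library labelled KO (58 UMIs in 31 cells) and 204 CPM in that labelled WT (43 UMIs in 27 cells), log2 0.85 (0.26 to 1.46).

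Genes of the ATP synthase, the enzyme that Atpif1 inhibits, were slightly higher in sum and none met the rule at the reported settings. Of 15 measured subunits 13 lay above 0 and 2 below, with a median of 0.38 and 0 called in either direction. Their sum was 5963 CPM in the library labelled KO and 4596 CPM in that labelled WT, log2 0.38 (0.24 to 0.51), and 0.34 (0.20 to 0.48) without the mixed cells. In effector cells the sum was 6002 CPM labelled KO and 5795 CPM labelled WT. In checkpoint-positive cells it was 8520 CPM labelled KO and 6247 CPM labelled WT. The higher sum labelled KO was thus not particular to naive-like cells, and whether the ratios differ between classes was not tested. Scaling by UMIs outside ribosomal protein and mitochondrial genes, or setting the median of all genes to 0, kept the direction of the list's median, but 4 subunits were called higher with the first of these scalings and 2 with the second. A filter of 2000 UMIs and 800 genes gave 7 called higher, and 0 were called lower under any of these 3 settings. Atp5e, a subunit of the central stalk, was at 1070.3 CPM in the library labelled KO (168 UMIs in 57 cells) and 722 CPM in that labelled WT (152 UMIs in 58 cells), log2 0.57 (0.24 to 0.89), and the catalytic subunit Atp5b at 191 CPM in the library labelled KO (30 UMIs in 26 cells) and 214 CPM in that labelled WT (45 UMIs in 32 cells), log2 -0.16 (-0.88 to 0.54).

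The rest of the respiratory chain gave small differences. In sum, complex I was at log2 0.15 (0.01 to 0.29) and complexes II to IV at 0.26 (0.14 to 0.37), so a higher sum was not particular to the ATP synthase. Without the mixed cells these were 0.14 (-0.01 to 0.30) for complex I and 0.21 (0.09 to 0.34) for complexes II to IV. Of 30 measured complex I genes 2 were higher, Ndufa5 and Ndufb2 at 1.10 and 1.11, and 0 lower, with a median of 0.14. Neither of the 2 kept an interval above 0 when the mixed cells were left out, at 0.91 (-0.15 to 2.03) for Ndufa5 and 1.08 (-0.05 to 2.29) for Ndufb2. Of 19 genes of complexes II to IV, 2 were higher, Uqcr11 at 1.23 (0.40 to 2.10) and Cox5b at 0.59 (0.05 to 1.13), and 1 lower, cytochrome c (Cycs) at -0.81 (-1.53 to -0.12), with a median of 0.21. The 12 measured genes of the mitochondrial genome had a median of 0.09, and of -0.04 without the mixed cells. Of them mt-Atp8 alone met the rule, at 166 CPM in the library labelled KO (26 UMIs in 20 cells) and 613 CPM in that labelled WT (129 UMIs in 51 cells), log2 -1.89 (-2.56 to -1.27). It overlaps mt-Atp6, at log2 0.10 (-0.01 to 0.21). How reads of the 2 genes were divided in counting was not tested, and the level of mt-Atp8 is uncertain. The same direction was found for mt-Atp8 in effector (-1.15 (-1.53 to -0.77)) and checkpoint-positive cells (-1.24 (-1.82 to -0.64)). Of 10 measured glycolytic genes, Pfkp was higher (1.33, with a lower bound of 0.00027 and an upper one of 2.77) and Ldha, which makes lactate, lower (-0.63 (-1.18 to -0.09)). Without the mixed cells Pfkp had 8 UMIs labelled KO and 6 labelled WT and Ldha was at -0.94 (-1.56 to -0.34).

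MHC class I genes differed little, with 1 of 17 measured higher and 0 lower and a median of 0.18 that was -0.07 without the mixed cells. The 1 was the immunoproteasome subunit Psmb8, at 293 CPM in the library labelled KO (46 UMIs in 30 cells) and 171 CPM in that labelled WT (36 UMIs in 24 cells), log2 0.78 (0.12 to 1.45). The invariant light chain B2m was at 2408 CPM in the library labelled KO and 2495 CPM in that labelled WT, log2 -0.05 (-0.25 to 0.14).

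**Figure D4:**
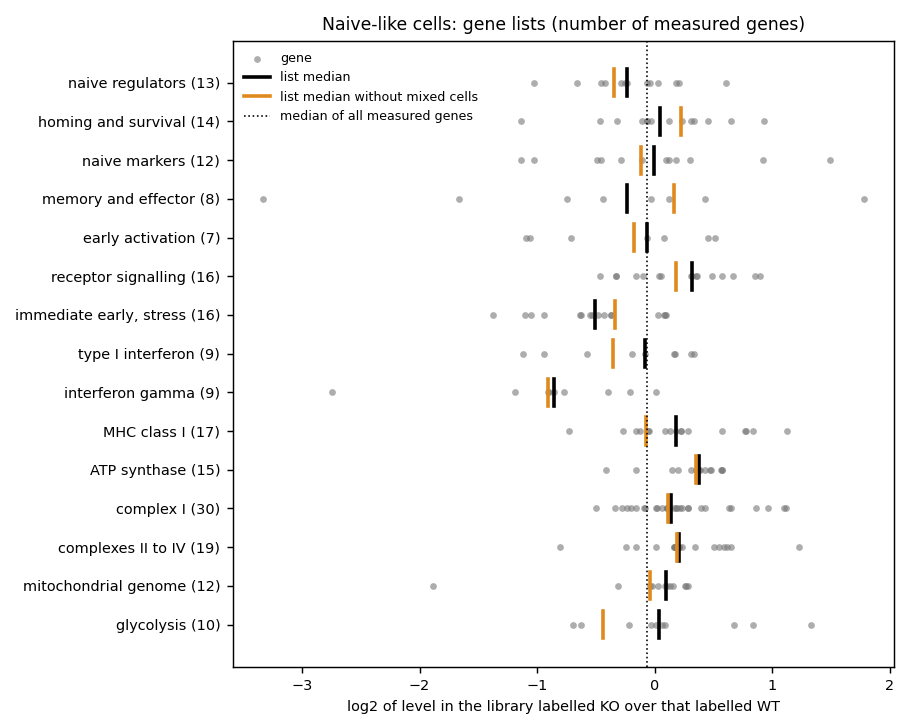
Log2 ratios, KO over WT (x axis), for the measured genes of 15 lists (grey points) in naive-like cells, with the median of each list (black bar) and its median without the 9 mixed cells (orange bar). The dotted line is the median over all measured genes, -0.06. The interferon gamma list lies lowest with both bars, at -0.86 and -0.91.

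By the naming rule, 9 more genes were highest in the library labelled KO after Ly6c2. They were Lsm4 (log2 1.42), a subunit of the Sm-like RNA complex, Rgs10 (1.21), a brake on G protein signals, Mrpl57 (1.55), a mitochondrial ribosomal protein, Ms4a6b (1.37), a membrane protein of T cells, Rp9 (1.15), Ptprcap (1.18), a partner of CD45, Txk, the inositol kinase Itpkb (1.42) and the splicing regulator Celf2 (1.42). Rgs10 was at 287 CPM in the library labelled KO (45 UMIs in 27 cells) and 124 CPM in that labelled WT (26 UMIs in 20 cells), and Lsm4 at 204 CPM in the library labelled KO (32 UMIs in 25 cells) and 76.1 CPM in that labelled WT (16 UMIs in 15 cells). All 9 had intervals above 0 without the mixed cells as well, from 0.90 for Rp9 to 2.29 for Itpkb. With cells thinned to 1000 UMIs before the gate Ms4a6b turned to -0.55 (-2.77 to 1.43), on 4 UMIs labelled KO and 7 labelled WT. These ratios rest on 10 to 45 UMIs per library. In the library labelled WT, Lsm4, Rgs10, Mrpl57, Ms4a6b and Celf2 lay below their level in empty droplets. There Lsm4 was at 76.1 CPM against 157 CPM in droplets, and Celf2 at 52.3 CPM against 116 CPM.

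At the other end stood mt-Atp8, Ier5, Actg1, Tmem176b, Nfkbia, Slc9a3r1, Mrps6, Herpud1, Pde4b and Ccr7. In the library labelled KO, all of these except Nfkbia, Pde4b and Ccr7 lay below their level in empty droplets, which for Actg1 was 3123 CPM. Actg1, cytoskeletal gamma actin, rested on the most counts, at 1911 CPM in the library labelled KO (300 UMIs in 58 cells) and 3708 CPM in that labelled WT (780 UMIs in 67 cells), log2 -0.96 (-1.15 to -0.76), and -0.95 (-1.17 to -0.74) without the mixed cells. Pde4b, which degrades cyclic AMP, was at 185 CPM in the library labelled KO (29 UMIs in 20 cells) and 433 CPM in that labelled WT (91 UMIs in 43 cells), log2 -1.23 (-1.88 to -0.61) and -1.10 (-1.79 to -0.45) without the mixed cells. Slc9a3r1, a scaffold under the membrane, was at log2 -1.65 (-2.81 to -0.63) and Herpud1, a gene of the unfolded protein response, at -2.01 (-3.74 to -0.61). Tmem176b, a channel protein of dendritic cells, had 29 UMIs in 3 cells labelled WT, all of them mixed cells, and 5 UMIs labelled KO, and without the mixed cells it had 4 UMIs labelled KO and 0 labelled WT. Actg1 in the other classes was at log2 -0.21 (-0.34 to -0.09) in effector and -0.48 (-0.64 to -0.33) in checkpoint-positive cells.

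**Figure D5:**
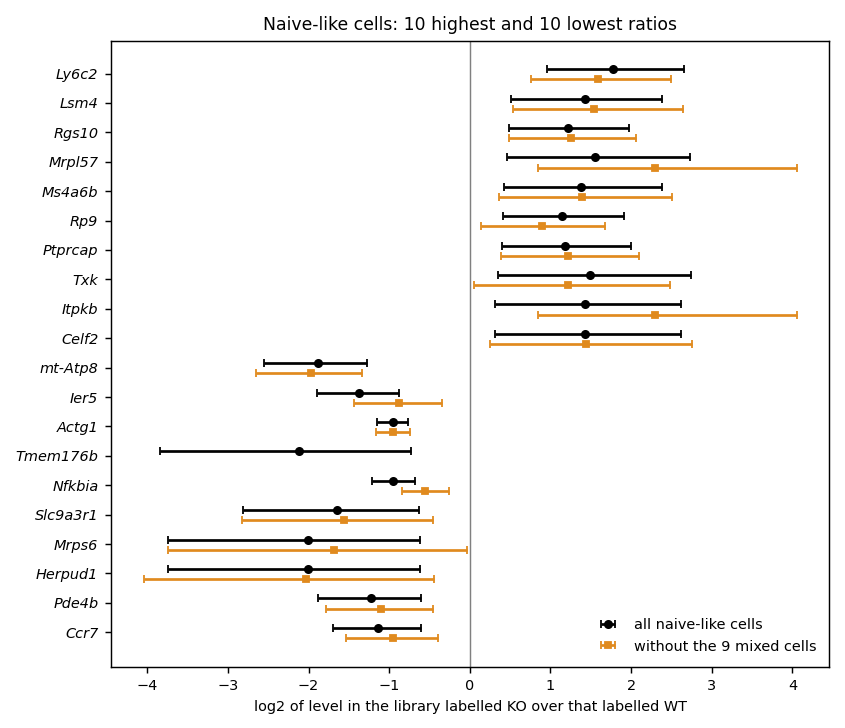
Log2 ratios, KO over WT (x axis), in naive-like cells for the 10 highest and 10 lowest genes by the naming rule, with exact conditional 95% intervals, over all 135 cells (black circles) and without the 9 mixed cells (orange squares). Tmem176b has no orange value, since without the mixed cells it had 0 UMIs in the library labelled WT. Ly6c2 stands at 1.78 and 1.59 and Ccr7 at -1.14 and -0.95.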

How the data were processed

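The labels describe enzymatic digestion of the tumours, lysis of red cells and loading of about 17400 cells per position of a 10x Genomics chip, with 5′ chemistry. The authors deposited raw UMI counts, neither normalised nor filtered for cells, as matrices of 31053 genes by 737280 barcodes, and receptor contigs in 1 table per library. Names in the submitters' processing notes are Cell Ranger 3.1.0, Seurat 3.2.0, R 3.6.1 and mm10. How receptors were assembled is not given in those notes.

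From these counts, barcodes were kept with at least 1000 UMIs, 500 genes and at most 10% mitochondrial UMIs, and the gate given in the report was applied. Effector cells are gated cells without checkpoint UMIs and with at least 2 UMIs of Ccl5 and Nkg7, and checkpoint-positive cells have at least 1 checkpoint UMI. UMIs were summed per class and library. Levels are CPM with exact Poisson intervals, ratios have exact conditional binomial intervals and shares exact Clopper-Pearson intervals, at the 95% level. Beside a share of 0 stands the share that 3 counts would make. With 1 pooled library per genotype no test was made. A list's median covers members with at least 20 UMIs over both libraries. The ratio was tested on simulated Poisson counts. Doublets, scored against simulated pairs of cells, were not removed. Alternatives were their removal, other limits on depth, genes and mitochondrial share, a stricter gate, thinning before the gate, other scalings and minimum counts, subtraction of free RNA and, chosen after seeing the data, leaving out mixed cells and averaging single-cell CPM.

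Genes named were the 5 markers, Atpif1, members of 23 lists and the 10 highest and 10 lowest ratios by the interval bound nearest 0. Ranked genes had at least 30 UMIs and were no receptor segment, ribosomal protein gene or unnamed gene model. Their level also had to exceed that of empty droplets (10 to 100 UMIs). For KO over WT this was asked only in the library where the gene was higher, so the other level may lie below. Members and lists were chosen with earlier results of these data known. Some genes of the lists and 1 receptor sequence are counted but not reported here by name. Aldoa and Atp5o, with more than 1 identifier each, were left out. RefSeq held 358 of the 376 symbols looked up. Tools were Python 3.11.15, numpy 2.4.6, scipy 1.17.1, pandas 2.3.3, scikit-learn 1.9.0 and matplotlib 3.10.9.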

Additional observations from a re-analysis of the deposited data

Results flagged for a closer look

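Among list members and genes named by rank, 7 had KO over WT ratios of opposite signs in naive-like and other gated CD8 T cells. For each of them both intervals lay off 0. None of these differences was tested, and no share over all measured genes is given. Rgs10, Mrps6 and Tmem176b had already been named for their high or low ratios in naive-like cells, so that side of their contrast was selected in advance. S100a4 had a log2 ratio of -1.66 in naive-like cells, against 1.25 in the other gated CD8 T cells, and S100a6 of -0.44, against 1.06. Both encode calcium-binding proteins of activated T cells and myeloid cells, and without the 9 mixed cells their ratios in naive-like cells were 0.80 (-2.32 to 4.39) for S100a4 and 0.66 (-0.31 to 1.65) for S100a6. Tmem176b stood at -2.11 in naive-like cells, against 1.37 in the others, and all of its 29 UMIs labelled WT lay in mixed cells. Rgs10 stood at 1.21, against -0.60, with 287 CPM in naive-like cells labelled KO and 124 CPM in those labelled WT, and at 1.25 (0.49 to 2.06) without the mixed cells. Mrps6, a mitochondrial ribosomal protein gene, stood at -2.01, against 0.84, on 5 UMIs labelled KO and 27 labelled WT, and at -1.69 (-3.74 to -0.037) without the mixed cells. The class I gene H2-K1 stood at -0.27, against 0.41, and at -0.21 (-0.46 to 0.043) without the mixed cells. The mitochondrial gene mt-Nd2 stood at 0.28, against -0.21, and at 0.16 (-0.092 to 0.40) without the mixed cells.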

How the results depend on the processing

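The interferon gamma list kept a negative median under every alternative run, at -0.97 to -0.61, the ATP synthase list a positive one at 0.15 to 0.59, and the share of naive-like cells among gated CD8 T cells a negative ratio. The share of clones was 0 under each definition of a clone. With all kept cells thinned to 1000 UMIs, the gate applied to the thinned counts took 46 cells labelled KO and 55 labelled WT. Cells can enter or leave the class by thinning, so these are not a subset of the reported members. The share of CD8 T cells then had a ratio of -1.17, genes higher and lower numbered 16 and 22, and list medians were 0.16 for naive regulators, 0.26 for homing receptors, 0.36 for naive markers, 0.26 for memory and effector genes, 0.60 for early activation, -0.20 for immediate early genes, 0.41 for type I interferon, 0.017 for MHC class I, 0.15 for ATP synthase, -0.16 for complex I, 0.17 for the mitochondrial genome and -0.52 for glycolysis. Fewer UMIs and a changed set of cells enter these values by construction. There Ccr7 turned to 0.95, Ms4a6b to -0.55, S100a4 to 0.088, Uqcr11 to -0.59, Ifit1 to 1.07 and Cxcl10 to 0.81. At 2000 UMIs and 800 genes the share of all kept cells had a ratio of -0.24, lower genes numbered 96, and medians were -0.31 for naive markers, 0.14 for memory and effector genes, -0.59 for immediate early genes, -0.084 for MHC class I, 0.59 for ATP synthase, 0.32 for complex I, 0.41 for complexes II to IV and -0.091 for the mitochondrial genome. At 5% mitochondrial UMIs medians were -0.49 for naive regulators, -0.32 for naive markers, -0.42 for immediate early genes, -0.44 for type I interferon, -0.61 for interferon gamma and 0.038 for the mitochondrial genome. With no UMI of Ccl5 or Nkg7 genes higher and lower numbered 29 and 76, medians were -0.24 for naive markers, -0.60 for immediate early genes, 0.32 for complex I and 0.27 for glycolysis, and Ifit1 turned to 0.11. Asking for 1 marker UMI moved type I interferon to -0.36. Without the mixed cells lower genes numbered 85, medians were 0.16 for memory and effector genes, -0.34 for immediate early genes, -0.36 for type I interferon, -0.075 for MHC class I, -0.041 for the mitochondrial genome and -0.44 for glycolysis, and S100a4 turned to 0.80 and Cd74 to 0.22. Scaling without ribosomal protein and mitochondrial genes gave 79 higher genes and medians of -0.40 for immediate early genes and 0.20 for the mitochondrial genome, which stood at 0.16 with the median of all genes set to 0. A minimum of 5 UMIs gave 102 higher genes and -0.063 for naive regulators. A minimum of 50 gave 22 higher and 81 lower genes, and medians of -0.043 for naive regulators, -0.20 for naive markers and -0.42 for glycolysis. Fewer or more genes are measured at these minima by construction. The cause of the other changes was not tested. No paired analysis was possible because each genotype is 1 pooled library with no replicate number. With 156969 UMIs labelled KO and 210384 labelled WT, most single genes could not be told apart within counting error.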
